A study of Mus musculus with 2 samples.

Results

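The genes described here are the chemokines and chemokine receptors of the mouse heart after infarction. They were chosen by name alone, as every gene symbol of the deposited table that follows the systematic nomenclature of chemokine ligands (Ccl, Cxcl, Cx3cl and Xcl), their receptors (Ccr, Cxcr, Cx3cr and Xcr) and the atypical receptors (Ackr). The rule found 61 of 24542 gene symbols, of which 39 are ligands (24 CC, 13 CXC and 2 of the CX3C and XC groups), 18 are receptors (10, 6 and 2) and 4 are atypical receptors. Of the 61, 57 had reads, and 4 (Ccl1, Ccl26, Ccr8 and Xcl1) had 0 reads in all 6 libraries, which allows up to 3 reads in each.

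Chemokines are small proteins that direct the movement of leukocytes by way of G protein-coupled receptors on those cells. Most are secreted and held on heparan sulfate of vessel walls and matrix, but CX3CL1 and CXCL16 are made as membrane proteins with a mucin stalk and are released by the proteases ADAM10 and ADAM17. In the infarcted heart, CCL2 and its receptor CCR2 are known for the recruitment of inflammatory monocytes, CXC ligands of CXCR2 for the recruitment of neutrophils, and CXCL12 with its receptor CXCR4 for the retention and homing of progenitor and immune cells. Atypical receptors bind chemokines without G protein signalling, and most but not all of them remove the chemokines they bind.

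The study compared male C57BL/6 mice lacking NRK-2, the nicotinamide riboside kinase encoded by Nmrk2, with littermate controls. In both groups the proximal left anterior descending coronary artery had been permanently ligated, and total RNA was taken 7 days later from left ventricle remote from the infarct, with scar and border zone removed. No unligated heart is among the groups, and the labels do not say in which cells the gene was deleted or whether animals were pooled. The labels list 1 sample per genotype while the deposited table holds 3 libraries of each, named here control 1 to 3 and KO 1 to 3. Separate animals are not named for them, and the p-values therefore reflect only how much these libraries vary, and that variation may be technical.

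The targeted gene was read first. Nmrk2 had 15.1, 13.0 and 4.79 CPM (reads relative to the TMM-adjusted size of each library) in control 1 to 3 and 27.9, 0.252 and 0 CPM in KO 1 to 3. The library labelled KO 1 held more Nmrk2 reads than any control library and so went against its label, while KO 2 and KO 3 were below every control library (a count of 0 in KO 3 allows up to 0.110 CPM). Depth was 22377348 to 22831189 counted reads in the control libraries and 26975513 to 33086384 in the libraries labelled KO.

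Marker lists of cell types were read in each library. The 8 leukocyte markers summed to 205, 325 and 965 CPM in control 1 to 3 and 641, 948 and 496 CPM in KO 1 to 3, and the 17 macrophage and monocyte markers found to 925, 1318 and 2744 CPM and 2583, 3318 and 2019 CPM, with no marker of either list at 0. Control 3 and KO 2 had the largest leukocyte marker sums of their genotypes. The 7 cardiomyocyte markers summed to 38425 to 64411 CPM in control and 19849.6 to 34011 CPM in libraries labelled KO, the 7 fibroblast markers to 2835 to 6421 CPM and 11946 to 14178 CPM, and the 7 endothelial markers to 1395 to 1735 CPM and 1245 to 1727 CPM. The fibroblast sums were higher and the cardiomyocyte sums lower in every library labelled KO, while the endothelial sums overlapped. Within the fibroblast list the matrix genes Col1a1 (771, 2822 and 2656 CPM in control and 5274, 6229 and 3278 CPM in KO 1 to 3) and Postn (362, 1254 and 543 and 4473, 5165 and 5853 CPM), with the smaller Lum and Tcf21, were higher in all libraries labelled KO, while Pdgfra, Dcn and Dpt overlapped (log2 fold changes 0.25, 0.12 and -0.084). The 4 atrial markers summed to 877, 929 and 110.4 CPM in control and 2886, 2357 and 3025 CPM in KO 1 to 3, mostly from Nppa, the natriuretic peptide that stressed ventricle also makes (442, 572 and 108 CPM in control and 2419, 2349.7 and 3022 CPM in KO 1 to 3). Sln and Myl7, by contrast, were near or at 0 in control 3, KO 2 and KO 3 and present in the other libraries, at 205, 162 and 0 CPM of Myl7 in control and 127, 1.15 and 0.219 CPM in KO 1 to 3. The lymphatic endothelial sums, given below, were lower in every library labelled KO. The remaining lists overlapped between the genotypes, with 2077 to 2704 CPM in control and 2045 to 2389.7 CPM in KO libraries for pericyte and smooth muscle, 179.9 to 323 and 250.5 to 395 for venous endothelial, 14.5 to 36.9 and 20.2 to 37.6 for mast cell, 60.8 to 715 and 32.0 to 108 for platelet and erythroid, and 57.9 to 918 and 2.30 to 439.7 for adipocyte markers, the last list added after the data were seen. Gp9 was at 0 in control 1 and KO 3, Lep in control 1, and Lep, Plin1 and Retn in KO 3. As these are bulk samples, fewer cells of a type and less RNA per cell cannot be told apart.

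Of the 61 genes, 46 passed the filter on low counts (edgeR's filterByExpr) and were tested. A gene is said to have risen or fallen where edgeR's quasi-likelihood test gave a Benjamini-Hochberg adjusted p under 0.05 over all 14466 genes tested. By that rule 4 of the 46 rose, namely Cx3cl1, its receptor Cx3cr1, Cxcl16 and Cxcr4, against 2.61% of all genes tested. None of the 46 fell, against 1.09% of all genes. At an unadjusted p under 0.05, 7 were higher and 4 lower (Ccl27a, Cxcl12, Cxcl14 and Ackr3), where 12.3% of all genes tested were higher and 13.5% lower. These 11 of 46 did not exceed the 25.9% of all genes at that level. DESeq2 and limma on log2(FPKM + 1) also called 0 members lower and called 5 higher, the fifth being Cxcr6. Both called more genes over the whole table than edgeR. DESeq2 called 1072 of 14940 higher and 1244 lower, and limma 529 and 335 of 14466.

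A wider view used only the order of the libraries by CPM. All 3 libraries labelled KO lay above all 3 control libraries for 7 of the 46 (Ccl3, Cx3cl1, Cx3cr1, Cxcl16, Cxcr4, Cxcr6 and Ackr4), and 16.4% of all genes tested did so. They lay below for 3 (Ccl27a, Cxcl12 and Cxcl14), where the share of all genes was 14.5%. Fitted log2 fold changes (knockout over control) were positive for 28 of the 46 and negative for 18, with a median of 0.31, against 0.01 over all genes tested. That median rested on single libraries, being -0.25 without KO 2, 0.079 without control 1 and 0.98 without control 3. By class, 11 of the 13 receptors in the fit were positive (median 0.76), as were 16 of the 29 ligands (median 0.21) and 1 of the 4 atypical receptors (median -0.40).

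**Figure D1:**
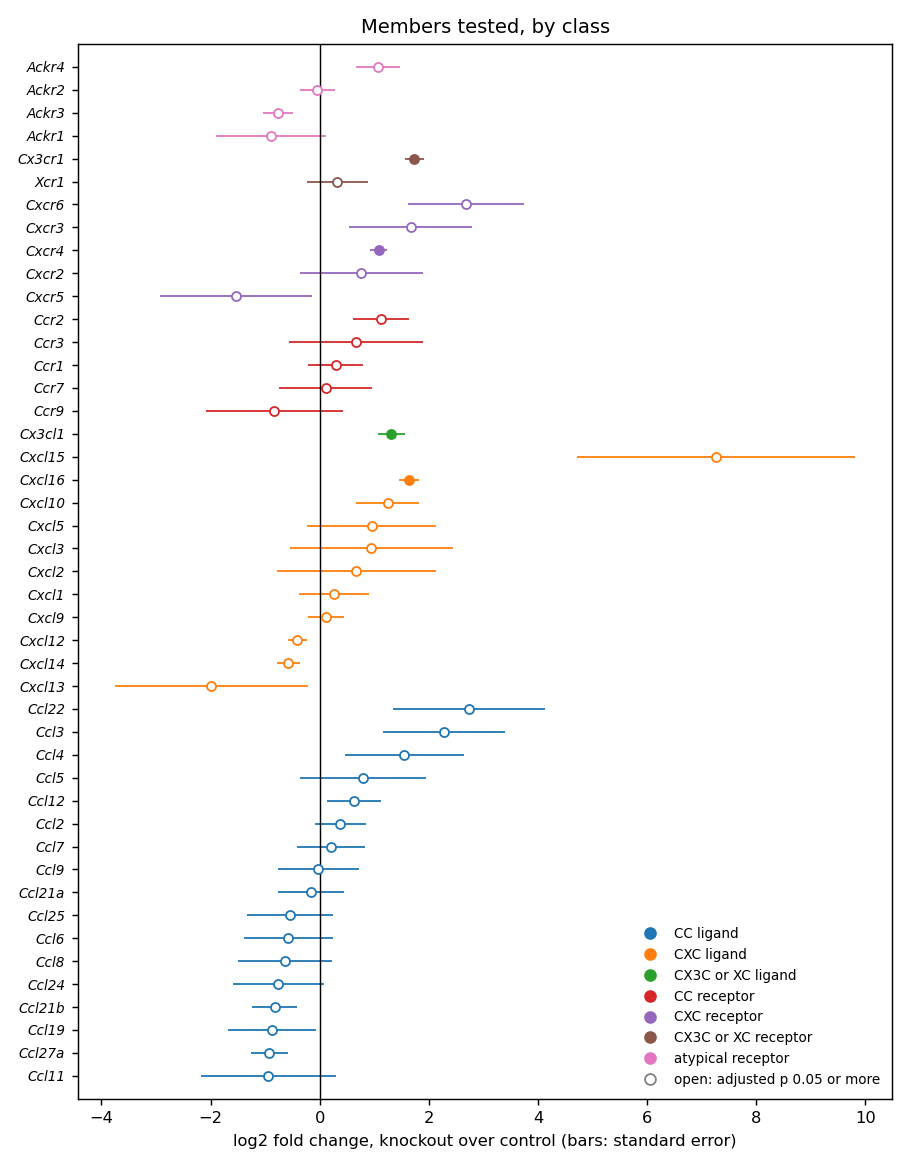
Log2 fold change, knockout over control, of 45 chemokine and receptor genes tested, ordered by class and then by value on the vertical axis. Points are edgeR estimates with bars of 1 standard error, and filled points are the 4 genes with an adjusted p under 0.05 (Cx3cl1, Cx3cr1, Cxcl16 and Cxcr4), which also have some of the shortest bars, while Cxcl15 and Cxcl13 have the longest.

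Summed levels of the classes were compared without a test. The 39 ligands summed to 356, 478 and 926 CPM in control 1 to 3 and 489, 798 and 356 CPM in KO 1 to 3, with control 3 the highest library and a KO mean 0.933 times the control mean. As a log2 ratio this is -0.10, which turned to 0.39 without control 3 and 0.13 without KO 3. The 18 receptors summed to 74.4, 104 and 221 CPM and 212, 354 and 246 CPM, a KO mean 2.03 times the control mean, with overlap only between control 3 and KO 1. The 4 atypical receptors summed to 72.3, 72.0 and 46.7 CPM and 55.8, 44.5 and 52.8 CPM, 0.801 times the control mean. By abundance per transcript length (mean deposited FPKM over the 6 libraries), Cxcl12 led with 54.8, followed by Ccl6 with 54.2, Ccl8 with 51.0 and Cxcl13 with 32.0. The means of the last 3 were raised by control 3 and KO 2, Cxcl13 with 1.84, 1.38 and 150.3 FPKM in control 1 to 3 and 2.79, 32.7 and 2.87 FPKM in KO 1 to 3, Ccl8 with 20.6, 17.7 and 147 and 38.1, 69.1 and 13.7 FPKM, and Ccl6 with 14.7, 28.2 and 151 and 30.5, 77.9 and 23.2 FPKM. Among signalling receptors Ccr2 was the most abundant at 21.2 FPKM, then Cxcr4 at 12.6 and Cx3cr1 at 11.1.

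The CX3C pair rose on both sides. Cx3cl1, the membrane-bound ligand known from endothelium and neurons, had 18.7, 15.0 and 9.74 CPM in control 1 to 3 and 33.7, 41.9 and 32.4 CPM in KO 1 to 3. All libraries labelled KO were above the highest control library, and the means were 14.5 ± 4.52 and 36.0 ± 5.13 CPM (SD, n = 3 libraries each). The fitted rise was 2.49-fold (log2 1.31, SE 0.25, edgeR adjusted p = 0.0427). In control libraries Cx3cl1 was lowest in control 3, the library with the largest leukocyte marker sum. The 7 endothelial markers summed to 1735, 1395 and 1400.1 CPM in control and 1727, 1304 and 1245 CPM in KO 1 to 3. The part of endothelial, leukocyte or other cells in this result was not tested.

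Cx3cr1, the receptor for CX3CL1 on monocytes, resident macrophages and some lymphocytes, had 17.6, 19.4 and 20.7 CPM in control 1 to 3 and 49.7, 69.6 and 72.2 CPM in KO 1 to 3. The control libraries lay within a narrow band, and the lowest library labelled KO was far above it. Means were 19.2 ± 1.55 and 63.8 ± 12.3 CPM (SD, n = 3 each), a 3.32-fold rise (log2 1.73, SE 0.17, edgeR adjusted p = 0.0114). The summed leukocyte markers were highest in control 3, while its Cx3cr1 stayed near that of the other controls. Of the 17 macrophage and monocyte markers, 3 were higher in all libraries labelled KO, as Cx3cr1 was, and 2 were lower in all. Those higher were Adgre1 (50.9, 78.7 and 119 CPM in control and 174, 203 and 175 CPM in KO 1 to 3), Fcgr1 and C1qb, and those lower were Lyve1 and Cd163. The shares of all genes tested were 16.4% higher and 14.5% lower, so these counts are near them. The other markers of the list overlapped, among them Csf1r, Cd68, Lyz2 and Mrc1. The part of macrophages and monocytes in the Cx3cr1 result was not tested. Expressed per 100 CPM of summed leukocyte markers, Cx3cr1 stood at 8.58, 5.96 and 2.14 in control 1 to 3 and 7.75, 7.35 and 14.6 in KO 1 to 3, and these ranges overlapped.

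Both calls depended on single libraries. For Cx3cl1 the adjusted p was 0.0692, 0.175 and 0.0175 without control 1, 2 and 3 in turn, and 0.121, 0.152 and 0.1005 without KO 1, 2 and 3. For Cx3cr1 it was 0.0529, 0.0642 and 0.0125 without the control libraries in turn, and 0.0219, 0.0497 and 0.0610 without the libraries labelled KO. The log2 fold change stayed positive in each of these fits, between 1.10 and 1.54 for Cx3cl1 and between 1.62 and 1.88 for Cx3cr1. Without KO 1, whose Nmrk2 went against its label, Cx3cr1 was thus still called and Cx3cl1 was not.

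The 3 called genes that had an entry in the RefSeq promoter table (GRCm38.p6, 250 bases before to 50 after the start site) are shown, because they are the members whose levels rose together. Capitals mark every match, on either strand, to any of 8 short motifs that were searched. The NF-kB-like motif was GGNNTTTCC, the AP-1 motif was TGANTCA, the GAS motif was TTCNNNGAA and the ISRE-like motif was GAAANNGAA. The PU.1 core was GAGGAA, the HIF core was ACGTG, the GC box was GGGCGG and the TATA motif was TATAAA. Each sequence runs 5′ to 3′ on the strand of the gene, Cx3cl1 at chr8:94771930-94772229 (plus strand), Cx3cr1 at chr9:120068247-120068546 (minus strand) and Cxcr4 at chr1:128592250-128592549 (minus strand).
Cx3cl1: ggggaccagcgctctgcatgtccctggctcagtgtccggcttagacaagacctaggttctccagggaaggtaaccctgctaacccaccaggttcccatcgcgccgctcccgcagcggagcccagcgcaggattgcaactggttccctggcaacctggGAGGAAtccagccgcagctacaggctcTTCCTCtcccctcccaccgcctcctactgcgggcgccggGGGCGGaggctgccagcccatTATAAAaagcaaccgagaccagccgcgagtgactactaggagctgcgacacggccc
Cx3cr1: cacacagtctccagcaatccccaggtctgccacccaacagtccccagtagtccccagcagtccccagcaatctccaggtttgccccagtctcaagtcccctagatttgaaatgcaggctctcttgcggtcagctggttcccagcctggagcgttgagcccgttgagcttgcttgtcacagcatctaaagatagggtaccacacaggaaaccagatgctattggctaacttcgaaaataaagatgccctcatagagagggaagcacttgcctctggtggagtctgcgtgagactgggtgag
Cxcr4: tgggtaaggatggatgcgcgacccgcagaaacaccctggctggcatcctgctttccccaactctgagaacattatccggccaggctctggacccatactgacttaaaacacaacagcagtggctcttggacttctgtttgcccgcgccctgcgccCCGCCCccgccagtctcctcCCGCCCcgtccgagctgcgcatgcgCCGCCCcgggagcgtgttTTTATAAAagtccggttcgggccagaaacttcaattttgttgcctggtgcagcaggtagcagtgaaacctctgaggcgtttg
The Cx3cl1 window held 2 PU.1 cores, 1 GC box and 1 TATA match, and that of Cxcr4 held 3 GC boxes and 2 TATA matches that overlap on opposite strands. In the Cx3cr1 window none of these letters was found. Across 32851 mouse promoters of the same length, a PU.1 core was present in 28.3%, a GC box in 35.7% and a TATA match in 13.6%, and in the 52 promoters of 45 chemokine and receptor symbols in 34.6%, 21.2% and 26.9%. NF-kB-like letters were in 5.82% of all promoters and 17.3% of the chemokine and receptor promoters. Shares for AP-1 were 7.81% and 17.3%, for GAS 8.30% and 5.77%, for ISRE-like letters 8.56% and 15.4%, and for the HIF core 19.6% and 13.5%. Such matches describe letters and are not evidence of a bound factor.

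Cx3cl1 lies on chromosome 8 (mm10, chr8:94772180-94782426) between 2 CC ligand genes that act on CCR4, 20.8 kb from Ccl22 and 28.0 kb from Ccl17. These neighbours had another pattern. Ccl22 had 0, 0.434 and 0.730 CPM in control 1 to 3 and 0.622, 6.72 and 0.548 CPM in KO 1 to 3, so that only KO 2 stood out (log2 fold change 2.73, SE 1.39, edgeR adjusted p = 0.266). Ccl17 was below the filter, with 0, 6 and 0 reads in control and 0, 104 and 15 reads in KO 1 to 3, again highest in KO 2. Their receptor Ccr4 had 0, 19 and 12 reads in control 1 to 3 and 0, 11 and 0 in KO 1 to 3, also below the filter.

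The other membrane-anchored chemokine rose as well. Cxcl16, which is also a scavenger receptor for oxidised lipid on macrophages, had 17.7, 20.4 and 25.7 CPM in control 1 to 3 and 66.3, 75.7 and 55.6 CPM in KO 1 to 3. The groups were well apart, with every library labelled KO at more than the highest control. Means were 21.2 ± 4.08 and 65.9 ± 10.1 CPM (SD, n = 3 each), a 3.10-fold rise (log2 1.63, SE 0.19, edgeR adjusted p = 0.0135). The gene (chr11:70454234-70459984) overlaps Zmynd15 on the opposite strand, and the sources used here do not say whether reads were assigned by strand. Zmynd15 had only 2.70, 4.34 and 3.04 CPM in control 1 to 3 and 4.28, 6.24 and 5.95 CPM in KO 1 to 3.

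Cxcr6, the receptor of CXCL16 on T, NKT and NK cells, was low but ordered the same way. It had 0, 0.723 and 1.87 CPM in control 1 to 3 and 3.76, 7.03 and 6.06 CPM in KO 1 to 3, that is 0, 15 and 46 against 109, 251 and 166 reads. The genotypes did not overlap, but the test was not passed (log2 fold change 2.68, SE 1.06, edgeR adjusted p = 0.170). DESeq2 gave an adjusted p of 0.0448 and limma on log2(FPKM + 1) 0.0408, both calls, and limma on log2(FPKM + 0.1) gave 0.0782. Per 100 CPM of summed leukocyte markers Cxcr6 stood at 0, 0.222 and 0.193 in control 1 to 3 and 0.587, 0.741 and 1.22 in KO 1 to 3, again without overlap. The 11 T and NK cell markers found summed to 5.45, 17.4 and 25.3 CPM in control 1 to 3 and 11.4, 22.5 and 10.8 CPM in KO 1 to 3, with overlap. Of these markers, Cd3d, Cd8b1 and Nkg7 were at 0 in control 1 and Ncr1 in control 2. Cxcr6 lies within Fyco1 on the opposite strand, which had 702, 755 and 470.3 CPM in control and 364, 247 and 354 CPM in KO 1 to 3, and control 1 held 0 Cxcr6 reads beside 14319 of Fyco1.

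In fits that each left out 1 library, the Cxcl16 adjusted p was 0.0546, 0.0833 and 0.0108 without control 1, 2 and 3, and 0.0589, 0.0551 and 0.0581 without KO 1, 2 and 3. Its log2 fold change lay between 1.52 and 1.79. Cxcr6 was called in 1 of these fits, without control 3 (log2 fold change 3.94, adjusted p = 0.0391). Cxcl16 per 100 CPM of leukocyte markers overlapped between the genotypes, at 8.63, 6.27 and 2.66 in control 1 to 3 and 10.3, 7.99 and 11.2 in KO 1 to 3.

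**Figure D2:**
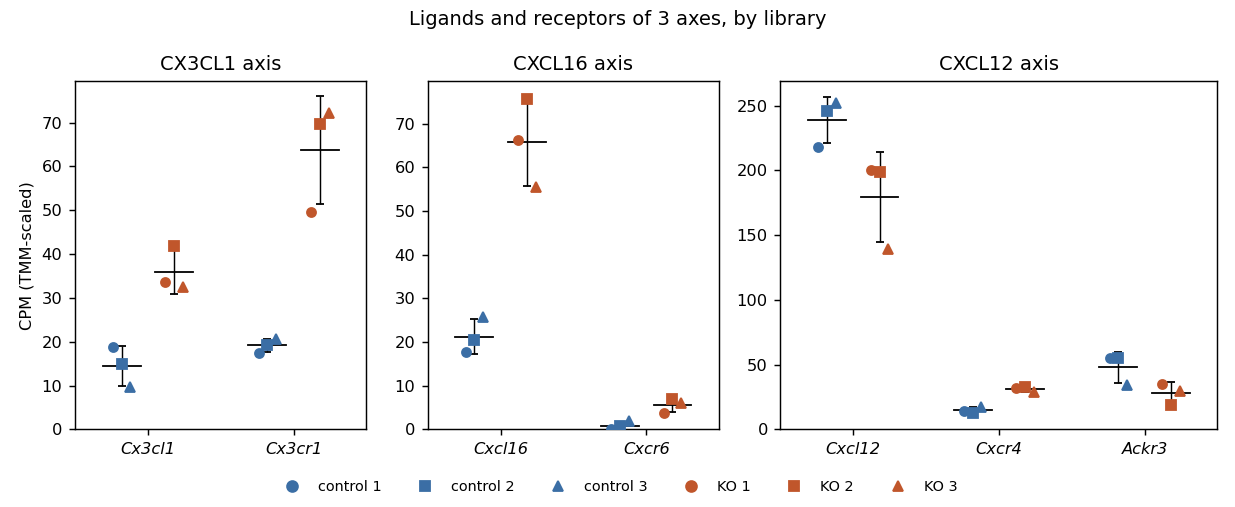
Abundance in CPM (TMM-scaled, linear axes from 0) of the ligands and receptors of the CX3CL1, CXCL16 and CXCL12 axes in each of the 6 libraries. Horizontal lines are means with bars of 1 SD over 3 libraries; Cx3cl1, Cx3cr1, Cxcl16, Cxcr6 and Cxcr4 lie above the control libraries in every library labelled KO, Cxcl12 lies below them, and Ackr3 overlaps.

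On the third axis the receptor and its ligand had fold changes of opposite sign. Cxcr4, the receptor of CXCL12 on leukocytes and endothelial cells, had 14.6, 12.5 and 17.0 CPM in control 1 to 3 and 32.1, 32.6 and 28.6 CPM in KO 1 to 3. The values within a genotype were close and the genotypes were apart, at 14.7 ± 2.26 and 31.1 ± 2.19 CPM (SD, n = 3 each). The rise was 2.11-fold (log2 1.08, SE 0.15, edgeR adjusted p = 0.0228). Leaving out control 1, 2 and 3 in turn gave adjusted p values of 0.0803, 0.0966 and 0.0136, and leaving out KO 1, 2 and 3 gave 0.0908, 0.0967 and 0.0724, with log2 fold changes from 0.97 to 1.20. Per 100 CPM of leukocyte markers Cxcr4 stood at 7.14, 3.85 and 1.76 in control and 5.01, 3.44 and 5.77 in KO 1 to 3, with overlap.

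Cxcl12, made by fibroblasts, pericytes and endothelium, had 218, 246 and 252 CPM in control 1 to 3 and 200.3, 199 and 139 CPM in KO 1 to 3. By CPM, every library labelled KO was below the lowest control library, KO 3 by the most. The deposited FPKM overlapped, at 39.99, 51.2 and 87.0 in control and 52.4, 64.9 and 32.9 in KO 1 to 3, and limma on log2(FPKM + 1) gave a log2 difference of -0.22 (adjusted p = 0.712). The difference did not pass the test (log2 fold change -0.41, SE 0.17, edgeR adjusted p = 0.191). The ratio of Cxcl12 to Cxcr4 CPM was 14.9, 19.7 and 14.8 in control 1 to 3 and 6.24, 6.09 and 4.87 in KO 1 to 3, a description that rests on the called gene. The 7 fibroblast markers, in contrast, summed to 2835, 6421 and 5793 CPM in control 1 to 3 and, above all of these, to 12002, 14178 and 11946 CPM in KO 1 to 3, the larger part of it in KO libraries from Col1a1 and Postn.

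Ackr3, the atypical receptor that scavenges CXCL12, had 54.9, 54.9 and 34.1 CPM in control 1 to 3 and 35.4, 19.3 and 29.9 CPM in KO 1 to 3. Control 3 lay just below KO 1, so the genotypes overlapped, and the test was not passed (log2 fold change -0.77, SE 0.28, edgeR adjusted p = 0.143). Without control 3 the adjusted p was 0.0347 at a log2 fold change of -0.96, and without both control 3 and KO 2 it was 0.0174 at -0.76. Of all fits run, the one without control 3 gave the largest number of member calls, 7 of 47 tested higher (Ccr2 and Cxcr6 among them) and 1 lower, which was Ackr3. That fit also called the most genes over the whole table. It called 1719 of 14775 higher and 1909 lower, against 378 and 157 of 14466 with all libraries.

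Reads of Cxcl12 were spread over 3 RefSeq transcripts, known to differ at their 3′ end. NM_001012477 took 92.4, 82.4 and 54.7% of the gene's reads in control 1 to 3 and 72.1, 55.9 and 79.8% in KO 1 to 3. NM_021704 took 7.64, 14.1 and 40.1% and 21.3, 32.6 and 15.1%, and NM_013655 took 0, 3.48 and 5.15% and 6.59, 11.6 and 5.14%. Control 3 and KO 2 had the largest NM_021704 share of their genotype, and the genotypes overlapped for each transcript share. None of the 3 was called (edgeR adjusted p from 0.251 to 0.926). The sources used here do not give the rule by which reads common to isoforms were assigned. Tested per transcript, 2 of 55 tested member transcripts (91 in all) rose, those of Cx3cr1 (adjusted p = 0.0431) and Cxcl16 (adjusted p = 0.0498), against 0.36% of 20265 transcripts tested. In the same edgeR fit 0 member transcripts fell, against 0.0888%, and at an unadjusted p under 0.05 4 were higher and 1 lower, against 8.12% and 8.64% of all transcripts tested.

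**Figure D3:**
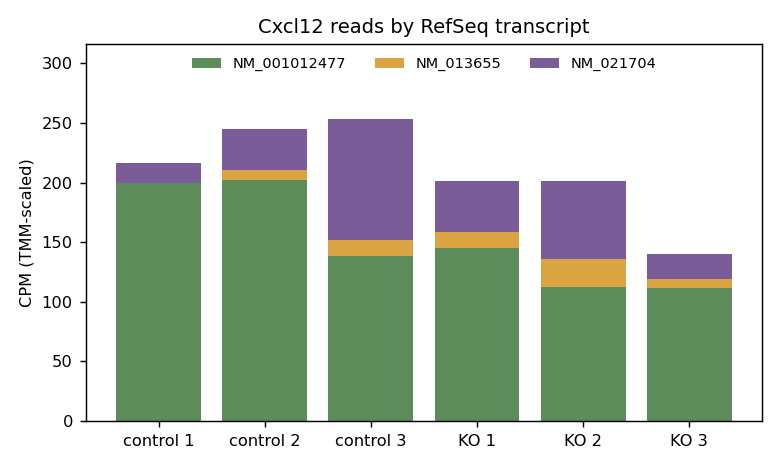
Cxcl12 abundance in each library as stacked bars from 0, in CPM (TMM-scaled), divided by RefSeq transcript. The NM_021704 part is largest in control 3 and KO 2, and the NM_001012477 part makes up more than that of any other transcript in all 6 libraries.

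Ccr2 and Ccr1, CC receptors of monocytes and macrophages, had higher means in libraries labelled KO, and neither was called. Ccr2, the receptor of CCL2, CCL7 and CCL12 on inflammatory monocytes, had 22.9, 33.4 and 85.2 CPM in control 1 to 3 and 67.7, 145 and 94.4 CPM in KO 1 to 3. Control 3 lay between KO 1 and KO 3, and the test gave a log2 fold change of 1.11 (SE 0.51, edgeR adjusted p = 0.225). Without control 3 the log2 fold change was 1.86 and the adjusted p 0.0194, and without both control 3 and KO 2 they were 1.52 and 0.0156.

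Ccr1, which binds CCL3, CCL5, CCL6 and CCL9, had 7.02, 13.4 and 28.6 CPM in control 1 to 3 and 17.1, 28.3 and 14.9 CPM in KO 1 to 3, with full overlap (log2 0.30, SE 0.50). The sign turned to -0.065 without control 1 and -0.033 without KO 2. Ccr1 followed the leukocyte markers closely, at 3.43, 4.13 and 2.96 per 100 CPM of their sum in control and 2.67, 2.99 and 3.01 in KO 1 to 3. Ccr2 on that scale was 11.2, 10.3 and 8.82 and 10.6, 15.2 and 19.0, higher in KO 2 and KO 3 than in any control and overlapping at KO 1. The ratio of Ccr2 to Cx3cr1 CPM was 1.30, 1.73 and 4.13 in control and 1.36, 2.07 and 1.31 in KO 1 to 3, highest in control 3.

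Their monocyte-attracting ligands overlapped between genotypes. Ccl2 had 2.94, 8.09 and 5.80 CPM in control 1 to 3 and 8.84, 9.13 and 3.83 CPM in KO 1 to 3 (log2 fold change 0.37, SE 0.47). Ccl7 had 1.96, 8.53 and 9.45 and 8.08, 11.3 and 3.69 CPM (log2 0.21, SE 0.63), and the sign turned without control 1 (-0.22) or KO 2 (-0.18). Ccl12 had 2.01, 8.86 and 4.42 and 6.98, 8.90 and 7.74 CPM (log2 0.63, SE 0.49), with control 1 below the other libraries. The smallest edgeR adjusted p of these 3 genes was 0.465, so that higher Ccr2 means stood beside ligand values that were not separated.

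Ccl6, Ccl9 and Ccl8, which lie in the CC clusters of chromosome 11, were the most abundant CC ligands and followed single libraries. Ccl6, a ligand of CCR1 made by macrophages and neutrophils, had 23.5, 45.0 and 204 CPM in control 1 to 3 and 43.7, 106 and 33.4 CPM in KO 1 to 3. Ccl9 had 13.4, 39.0 and 104 and 44.9, 85.0 and 23.8 CPM, and Ccl8 had 11.7, 10.1 and 70.8 and 19.4, 33.3 and 7.01 CPM. In all 3 genes control 3 was the highest control library and KO 2 the highest library labelled KO. The log2 fold changes were -0.58, -0.026 and -0.63 with all libraries and 0.83, 0.97 and 0.87 without control 3, so leaving out that library turned the sign of all 3. For Ccl9 the sign also turned without KO 1 (0.060) or KO 3 (0.31).

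The same 2 libraries led most members. Among control libraries, control 3 had the highest value of 33 of the 46 tested members (71.7%), against 38.4% of all genes tested. Among libraries labelled KO, KO 2 had the highest value of 35 of the 46 (76.1%), against 36.4% of all genes. These are the libraries with the largest leukocyte marker sums of their genotype, and their part in the results above was not tested. Without both, 5 of 45 tested members rose (the 4 called genes and Ccr2) and Ackr3 fell. Calls over all genes were also more numerous in that fit, with 986 of 14400 higher and 1552 lower.

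**Figure D4:**
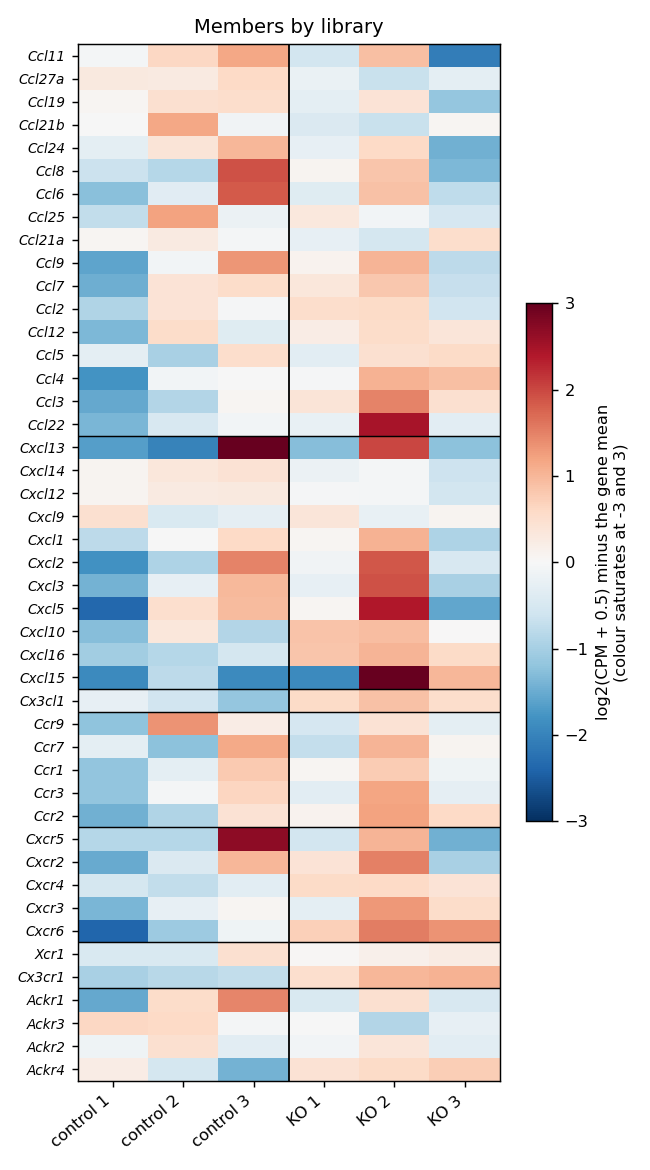
Abundance of 45 tested members in each library, as log2(CPM + 0.5) minus the mean of the gene over the 6 libraries, grouped by class (horizontal lines) and ordered by fold change. Red is above and blue below the mean of the gene, the colour saturates at -3 and 3, and the vertical line divides control from KO libraries; many rows are red in both control 3 and KO 2, while Cx3cl1, Cx3cr1, Cxcl16, Cxcr4 and Cxcr6 are red in all libraries labelled KO.

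Ccl3, Ccl4 and Ccl5 were low. Ccl3 had 0, 0.289 and 1.01 CPM in control 1 to 3 and 1.38, 3.56 and 1.53 CPM in KO 1 to 3, and its ranges did not overlap, although the test was not passed (log2 fold change 2.28, SE 1.12, edgeR adjusted p = 0.252). Ccl4 (mean 0.791 ± 0.686 CPM in the control libraries and 2.34 ± 0.996 CPM in those labelled KO, SD, n = 3 each) and Ccl5 (mean 0.396 ± 0.455 and 0.698 ± 0.367 CPM) overlapped. All 3 are made by activated macrophages and T cells.

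Neutrophil-attracting CXC ligands of CXCR2 were highest in KO 2. Cxcl5 had 0.736, 8.53 and 11.7 CPM in control 1 to 3 and 6.08, 32.9 and 1.64 CPM in KO 1 to 3 (log2 fold change 0.95, SE 1.19), and -0.86 without KO 2. Cxcl1 had 1.67, 3.23 and 5.19 and 3.42, 7.22 and 1.46 CPM (log2 0.26, SE 0.65), -0.46 without KO 2 and -0.059 without control 1. Cxcl2 and Cxcl3 had means of 1.62 ± 2.44 and 0.912 ± 1.08 CPM in control and 2.60 ± 2.85 and 1.77 ± 2.38 CPM in those labelled KO (SD, n = 3 each). The receptor Cxcr2 had 1.41 ± 1.60 and 2.40 ± 2.21 CPM, and Cxcr1, below the filter, had at most 3 reads in a library. The 8 neutrophil markers summed to 7.996, 18.7 and 121 CPM in control 1 to 3 and 46.8, 93.3 and 14.9 CPM in KO 1 to 3, with Camp and Ngp at 0 in control 1, control 2 and KO 3. These ligands, like the markers, were higher in control 3 and KO 2 than in the other libraries of their genotype, and the smallest edgeR adjusted p among the 5 tested genes was 0.655.

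Interferon-inducible ligands of CXCR3, which attract activated T cells, were also not separated. Cxcl10 had 1.08, 4.29 and 1.58 CPM in control 1 to 3 and 6.39, 6.69 and 3.36 CPM in KO 1 to 3 (log2 fold change 1.24, SE 0.57, edgeR adjusted p = 0.222), with control 2 above KO 3. It overlaps Art3 on the opposite strand, which had far more reads and was lower in all libraries labelled KO (345, 324 and 190.1 CPM in control and 146, 91.9 and 122 CPM in KO 1 to 3), so its reads are uncertain. Cxcl9 had 8.34, 4.14 and 4.79 and 7.60, 4.90 and 6.24 CPM (log2 0.12, SE 0.34), and its sign turned without control 2 (-0.070) and without KO 1 (-0.047). Cxcl11 was below the filter with at most 3 reads in a library. Ccl2, Ccl6, Ccl19, Ccl21a, Ccl25, Ccr9, Cxcl15 and Cxcr5 likewise overlap an annotated gene on the opposite strand. The receptor of these interferon-inducible ligands, Cxcr3, had a mean of 0.477 ± 0.435 CPM in control and 1.53 ± 1.06 CPM in those labelled KO (SD, n = 3 each, adjusted p = 0.392).

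Chemokines known to organise B cell follicles were high in single libraries. Cxcl13, the B cell attractant, had 2.40, 1.78 and 165 CPM in control 1 to 3 and 3.25, 35.9 and 3.36 CPM in KO 1 to 3. Its receptor Cxcr5 had 0.589, 0.578 and 12.0 and 0.829, 3.47 and 0.219 CPM, and Ccr6, a receptor of B and T cells that was below the filter, had 0, 0 and 145 reads in control and 3, 31 and 0 reads in KO 1 to 3. Control 3 was the highest library for each of these 3 genes, followed by KO 2. The 7 B and plasma cell markers found summed to 10.6, 9.54 and 781 CPM in control 1 to 3 and 14.2, 183 and 15.6 CPM in KO 1 to 3, in the same order at the top, with Cd79a and Pax5 at 0 in control 2 and Pax5 in KO 3. Cxcl13 and Cxcr5 were not called (edgeR adjusted p = 0.517 and 0.527), and without control 3 the Cxcl13 log2 fold change moved from -1.99 to 2.76.

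Ccl19 and the Ccl21 genes, ligands of CCR7 from lymphatic vessels and stromal cells, were lower in mean in the libraries labelled KO and were not called. Ccl21b had 8.49, 19.9 and 7.95 CPM in control 1 to 3 and 6.25, 5.29 and 9.02 CPM in KO 1 to 3, highest in control 2 (log2 fold change -0.82, SE 0.41, edgeR adjusted p = 0.260). Ccl21b, Ccl21a and Ccl21c are near-identical copies and Ccl21b is listed at several loci with nearly equal counts, so these values are uncertain and some reads may be counted more than once. Ccl21a had 0.967 ± 0.175 and 0.867 ± 0.556 CPM and Ccl19 1.26 ± 0.289 and 0.682 ± 0.605 CPM (mean ± SD, n = 3 each), while Ccl21c, below the filter, had 4 reads in every library. Ccr7 had 1.57, 0.578 and 5.03 CPM in control 1 to 3 and 1.04, 4.56 and 2.15 CPM in KO 1 to 3, again highest in control 3 and KO 2 of their genotypes. The 5 lymphatic endothelial markers summed to 181, 225 and 174 CPM in control and 169, 158 and 152 CPM in KO 1 to 3, without overlap. The part of lymphatic vessels in these values was not tested.

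**Figure D5:**
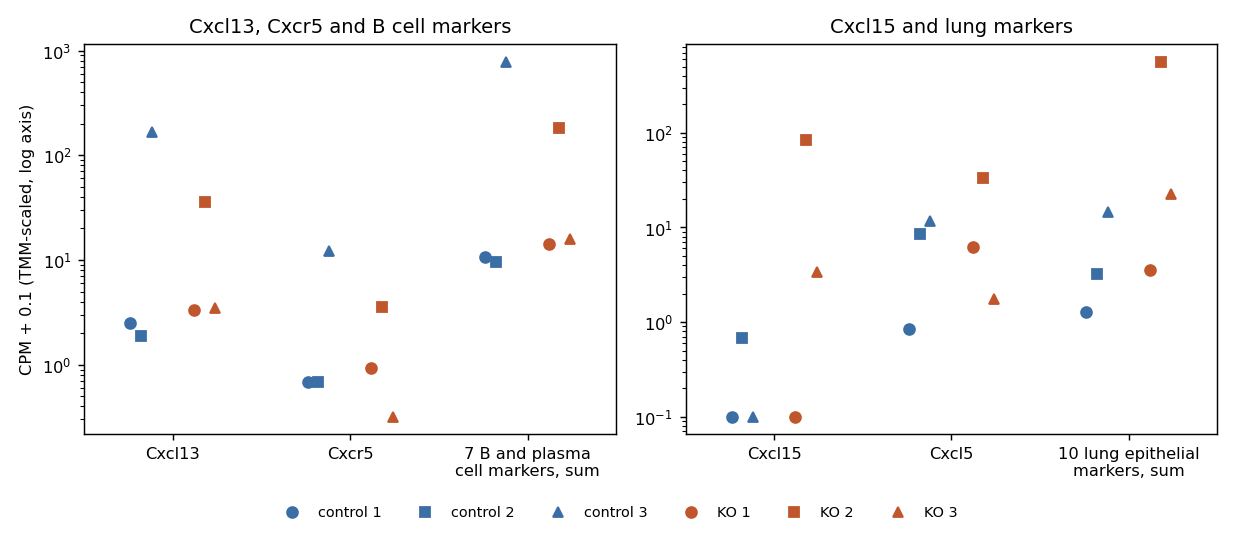
Abundance by library on a log axis (CPM + 0.1, TMM-scaled) of Cxcl13, Cxcr5 and the sum of 7 B and plasma cell markers (left), and of Cxcl15, Cxcl5 and the sum of 10 lung epithelial markers (right). Control 3 and then KO 2 are the highest in each column on the left, and KO 2 is the highest in each column on the right.

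Cxcl15, known as a chemokine of lung epithelium, was read almost only in KO 2. It had 0, 12 and 0 reads in control 1 to 3 and 0, 3021 and 89 reads in KO 1 to 3, or 0, 84.6 and 3.25 CPM in the latter. The fitted log2 fold change of 7.27 had an SE of 2.55 and was not called (edgeR adjusted p = 0.134), and without KO 2 it was 3.06 (adjusted p = 0.561). A list of 10 lung epithelial markers, chosen after these values had been seen, summed to 1.18, 3.13 and 14.5 CPM in control 1 to 3 and 3.42, 564 and 22.7 CPM in KO 1 to 3. Of these markers only Scgb3a2 was at 0 in KO 2, while Sftpb, Sftpd and Cldn18 were among those at 0 in all 3 control libraries and KO 1.

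Cxcl14 and Ccl27a, ligands known from epithelium and skin, had lower values in all libraries labelled KO. Cxcl14 had 14.0, 17.1 and 17.97 CPM in control 1 to 3 and 11.7, 12.8 and 8.44 CPM in KO 1 to 3, without overlap (log2 fold change -0.57, SE 0.20, edgeR adjusted p = 0.139), although its deposited FPKM overlapped (6.90, 8.38 and 10.4 and 6.43, 7.40 and 4.59). Ccl27a, a ligand of CCR10, had 2.94, 2.89 and 3.81 and 1.97, 1.29 and 1.83 CPM, also without overlap (log2 -0.93, SE 0.34, adjusted p = 0.150). Neither passed the test. Ccl27a overlaps Il11ra1 on the opposite strand, which had far more reads (86.6, 80.5 and 70.2 CPM in control and 68.6, 72.3 and 69.3 CPM in KO 1 to 3), so its reads are uncertain. Ccl25 (mean 1.49 ± 1.44 CPM in the control libraries and 1.02 ± 0.416 CPM in those labelled KO, SD, n = 3 each) and its receptor Ccr9 (1.09 ± 1.22 and 0.604 ± 0.403 CPM) overlapped.

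The eosinophil attractants Ccl11 and Ccl24 had means of 2.79 ± 1.31 and 2.16 ± 1.15 CPM in control and 1.44 ± 1.75 and 1.26 ± 1.11 CPM in libraries labelled KO, and their receptor Ccr3 had 0.612 ± 0.630 and 0.975 ± 0.950 CPM (SD, n = 3 each). All 3 overlapped, and both ligands were lowest in KO 3. Xcr1, the receptor of cross-presenting dendritic cells, had 0.916 ± 0.577 and 1.15 ± 0.121 CPM, while the 6 dendritic cell markers summed to 18.8, 18.6 and 44.7 CPM in control 1 to 3 and 39.0, 88.2 and 38.2 CPM in KO 1 to 3. The remaining members with reads were all below the filter. Ccl20, Ccl27b, Ccl28, Ccr10 and Cxcl17 had at most 9 reads in any library, which is too few for a comparison at this depth.

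The other 3 atypical receptors were not called. Ackr4, which scavenges CCL19, CCL21 and CCL25, had 12.3, 7.08 and 3.61 CPM in control 1 to 3 and 14.4, 16.0 and 17.7 CPM in KO 1 to 3. Its genotypes did not overlap, with control 3 the lowest, and it did not pass the test (log2 fold change 1.07, SE 0.41, edgeR adjusted p = 0.159). Ackr4 overlaps Acad11 on the opposite strand, at 325, 304 and 198 CPM in control and 157, 108 and 174 CPM in KO 1 to 3. Acad11 was thus lower in all libraries labelled KO, where Ackr4 was higher, but within the control libraries both were highest in control 1 and lowest in control 3, and both were highest in KO 3 among those labelled KO. Ackr2, a scavenger of inflammatory CC ligands, had 4.91, 7.81 and 4.30 CPM in control 1 to 3 and 5.11, 7.11 and 4.27 CPM in KO 1 to 3 (log2 -0.043, SE 0.33). Ackr1, the venular and red cell receptor, had 2.37 ± 2.28 and 1.28 ± 0.737 CPM (SD, n = 3 each, adjusted p = 0.619). Its locus overlaps Cadm3 on the same strand, so its reads are uncertain.

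Partners of the chemokine system were read from 6 gene lists in the same fit, in which 2.61% of all genes rose, 1.09% fell and 25.9% had an unadjusted p under 0.05. Of 27 genes of G protein and phosphoinositide 3-kinase signalling tested, 1 rose and 0 fell, and the median log2 fold change was 0.32, so that a single call stood near the share of all genes. The gene was Tiam1, an activator of the GTPase Rac, with 17.95, 17.2 and 18.2 CPM in control 1 to 3 and 32.0, 42.2 and 32.6 CPM in KO 1 to 3 (log2 1.002, SE 0.14, edgeR adjusted p = 0.0246). The 4 most abundant others were Stat3, Akt1, Rac1 and Gnai2, with log2 fold changes of 0.20, -0.33, 0.14 and 0.32. Of 11 genes of receptor desensitisation tested, 0 were called and 2 had an unadjusted p under 0.05 (median 0.14), with Arrb1 at 0.40, Adrbk1 at -0.12, Grk5 at 0.68 and Grk6 at -0.10.

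Of 18 genes of leukocyte adhesion, 1 rose and 0 fell (median 0.08). Itgb1, the integrin β1 chain, had 672, 704 and 600.4 CPM in control 1 to 3 and 1054, 1072 and 1084 CPM in KO 1 to 3 (log2 0.70, SE 0.14, edgeR adjusted p = 0.0498), just inside the threshold. Pecam1, Jam2, Cd99l2 and Vcam1 had log2 fold changes of 0.056, -0.068, -0.38 and 0.44. Of 18 genes that bind or trim chemokines, 1 rose and 0 fell, with a median of 0.59, and 9 had an unadjusted p under 0.05 (25.9% of all genes). Mmp2, a matrix protease that cleaves CXCL12 and other chemokines, had 206, 269.6 and 299 CPM in control 1 to 3 and 457, 655 and 557 CPM in KO 1 to 3 (log2 1.11, SE 0.20, adjusted p = 0.0407).

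Of the heparan sulfate proteins and enzymes of the same list, Hspg2 had a log2 fold change of 0.68 (adjusted p = 0.0580), Sdc3 of 0.72 (0.0579) and Ndst1 of 0.50 (0.246), and the protease Mmp14 had 1.23 (0.111). None of these passed the test. The sheddases of CX3CL1 and CXCL16, singled out after their values had been seen, were Adam10 with 68.3, 89.7 and 103 CPM in control 1 to 3 and 139, 137 and 119.8 CPM in KO 1 to 3, and Adam17 with 85.3, 91.7 and 103 and 118, 122 and 113 CPM. Both had their 3 lowest values in the control libraries, and neither was called (edgeR adjusted p = 0.0918 and 0.128). The fibroblast marker sums, above the controls in all 3 libraries labelled KO, moved with this list, and their part was not tested.

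Of 26 tested inducers of chemokine genes, 0 were called and 9 had an unadjusted p under 0.05 (25.9% of all genes), and the median log2 fold change was 0.35. Among the most abundant were Hif1a at 0.51, Ifngr2 at -0.55 and Ifngr1 at 0.45, and Ifng had 0 reads in 5 of the 6 libraries. Of 15 tested chemokine-like genes outside the naming rule, 0 were called and 1 had an unadjusted p under 0.05 (median 0.08), among them Cd74 at 0.48, Csf1 at 0.044, Vcam1 at 0.44 and Cmtm6 at 0.077. Over the 6 lists, 3 partner genes were called. That number was 0 when any of control 1, control 2, KO 1, KO 2 or KO 3 was left out and 43 without control 3. Calls over all genes moved likewise and are not particular to these lists. They were 1719 higher and 1909 lower of 14775 without control 3. Without any other library they were 3 to 78 higher and 0 to 10 lower.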

How the data were processed

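Total RNA libraries (stranded kit, per the labels' protocols) were processed with tools that include HISAT2 and Bowtie2 on mm10, per the submitters' processing notes. The authors deposited read counts and FPKM values for 36780 transcripts, with RefSeq identifiers and gene symbols, per the file headers. The sources used here do not give the counting tool, its use of strand or the annotation release. Counts were summed per symbol and tested, 3 libraries against 3, by edgeR's quasi-likelihood method (edgeR 4.0.16, R 4.3.3) with TMM factors, filterByExpr and adjustment after Benjamini and Hochberg over 14466 genes. Libraries of a genotype differed beyond counting error (median chi-square 3.88 to 19.1 per gene, 0.455 for repeat runs). Members, gene lists and tests were chosen with earlier results of these data known. Members in the fit were named (1 member and 1 partner gene are not reported here), with values in every library at a mean of at least 3 CPM, when called, or when ranges did not overlap, and of partner lists the called and up to 4 further abundant genes. Alternatives were DESeq2 1.42.0, limma 3.58.1 on log2(FPKM + 1) and log2(FPKM + 0.1), other scalings and filters, a block for the library number and leaving out libraries. Tested on simulated counts for 14466 genes, this fit recovered 34 of 100 genes changed 2-fold and 91 of 100 changed 4-fold, with 7 false calls. These numbers describe the simulated counts and are not a measured recovery or error rate for the real libraries. A count of 0 allows up to 3 reads, which is counting error only.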

Additional observations from a re-analysis of the deposited data

How the results depend on the processing

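The counts of 4 members higher and 0 lower were the same under DESeq2 size factors, library totals alone, no filter, a filter of at least 1 CPM in 3 libraries and limma on log2(FPKM + 0.1), and were 5 and 0 with DESeq2 and limma on log2(FPKM + 1). Over all genes, these settings called 317 to 1072 higher and 106 to 1244 lower, against 378 and 157 in the main fit. Leaving out 1 library gave 0 to 7 members higher and 0 to 1 lower, 0 to 43 partner genes (main count 3) and 0 member transcripts (main count 2). The same gene fits called 3 to 1719 of all genes higher and 0 to 1909 lower. Leaving out both control 3 and KO 2, a choice made after seeing the data, gave 5 members higher and 1 lower, and 986 and 1552 of 14400 genes. Library totals alone gave 1 member transcript and moved the median of all genes to a log2 fold change of 0.11. Calls over all transcripts were counted only in the main fit. Whether the changes in member transcript calls are particular to the members is therefore not known. The replicate block, a term for the library number, gave 0 members higher, 0 lower, 0 partner genes and 0 member transcripts. Over all genes that fit called 6 of 14466 higher and 0 lower, so the loss of calls was not particular to the members. In it Cx3cl1, Cx3cr1, Cxcl16 and Cxcr4 had log2 fold changes of 1.35, 1.72, 1.64 and 1.09. Their edgeR adjusted p values were 0.127, 0.0731, 0.0969 and 0.127. Same-numbered deviations from the genotype mean correlated at 0.31, -0.33 and -0.35, and those of control 3 and KO 2 at 0.58. Deviations from a mean of 3 libraries are tied to each other, so these correlations cannot show whether the libraries were paired by number.

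The log2 ratios of summed levels, -0.10 for ligands, 1.02 for receptors and -0.32 for atypical receptors, moved by less than the spread between libraries in each alternative run, but the ligand ratio turned sign without control 3 (0.39) and without KO 3 (0.13) and reached -0.47 without KO 2. Among 28 members followed (27 under the filter of 1 CPM, without Cxcl15, and with DESeq2, without Cxcl13), signs turned only for some that were not called. Library totals alone gave 0.086 for Ackr2 and 0.014 for Ccl9, limma on log2(FPKM + 1) 0.062 and 0.29, and limma on log2(FPKM + 0.1) 0.090 and 0.34. The replicate block gave 0.35 for Ccl9 and 0.081 for Cxcl13. Without both control 3 and KO 2, the values were 0.16 for Ccl6, 0.27 for Ccl8, 0.38 for Ccl9, -0.017 for Cxcl1, 0.64 for Cxcl13 and -0.27 for Cxcl5. Leaving out 1 library at a time gave ranges of -0.27 to 0.26 for Ackr2, -1.24 to 0.83 for Ccl6, -0.22 to 0.56 for Ccl7, -1.22 to 0.87 for Ccl8 and -0.60 to 0.97 for Ccl9. The ranges were -0.065 to 0.98 for Ccr1, -0.46 to 0.72 for Cxcl1, -4.09 to 2.76 for Cxcl13, -0.86 to 1.55 for Cxcl5 and -0.070 to 0.48 for Cxcl9. Fits without a library test fewer samples, and the cause of the other changes was not tested. Cxcr6 and Ccl3, with few reads, had standard errors above 1 on the log2 scale, which limits what could be called. So did Cxcl13 (SE 1.77) and Cxcl15 (SE 2.55), with 4068 reads in control 3 and 3021 reads in KO 2. Xcr1 and Ccl21a, also with few reads, had standard errors of 0.56 and 0.60. The part of read number in these errors was not tested.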
